A study of Mus musculus with 6 samples.

Results

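The small leucine-rich proteoglycans described here are 9 genes: Lum, Kera, Fmod, Prelp and Omd, Ogn, and Aspn, Dcn and Bgn. They were taken by name, as the non-control probes whose gene name in the scanner files is one of these symbols, which gave 12 of 41174 probes and 9 of 27573 gene names. Dcn, Bgn and Prelp have 2 probes each and the others 1. The samples were tumors of Hepa1-6, a mouse hepatoma cell line, grown under the skin of female C57Bl/6 mice after inoculation of cultured cells, with 3 tumors taken at day 15 (tumors 303, 313 and 318) and 3 at day 10 (tumors 302, 307 and 312). Each tumor was set on its own 2-colour array against 1 reference description, total RNA from blood of an untreated female C57Bl/6 mouse. Tumor RNA carried the dye Cy5 and reference RNA Cy3 on all 6 arrays. With no dye swap, a dye bias of a probe remains in its ratio. All tumors came from 1 cell line, and their RNA includes that of the host cells in the tissue. The labels give neither the age of the mice nor which mouse each tumor came from, and RNA of uninjected skin or of cultured Hepa1-6 cells was not analysed here. The day 15 arrays all lay on 1 slide and the day 10 arrays on another, so day and slide cannot be told apart.

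Small leucine-rich proteoglycans are secreted proteins of the extracellular matrix with a core of leucine-rich repeats, and several carry chondroitin, dermatan or keratan sulfate chains. They bind collagen fibrils and set fibril diameter and spacing, and some also bind growth factors or cell surface receptors. In most tissues fibroblasts and related mesenchymal cells are their main source, and in tumors they are known as products of the stroma. Lum, Kera, Fmod, Prelp and Omd belong to the class related to keratan sulfate proteoglycans, Dcn, Bgn and Aspn to the decorin class, and Ogn to another class, with Epyc and Optc.

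Several of these genes are neighbours on the chromosome. Among protein-coding genes in the RefSeq annotation (GRCm38.p6), Aspn, Omd and Ogn follow each other on chromosome 13 next to Ecm2, a more distant family member. Dcn, Lum and Kera lie side by side on chromosome 10, Prelp and Fmod on chromosome 1, and Bgn is on the X chromosome. RefSeq promoter sequence was found for 7 of the 9 genes, namely all but Lum and Dcn. The 250 bases before the start of Aspn, Omd and Ogn are shown because these neighbours were all higher in tumor than in the reference, and those of Bgn because Bgn was too but has the most GC-rich window of the 7. Capitals mark matches to the letters searched on both strands, which were TATAAA, the letters of a TATA box, then CCAAT, those of a CCAAT box, then GGGCGG, those of a GC box, and TGANTCA, those of an AP-1 site.

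Aspn, chr13:49544193-49544442, plus strand: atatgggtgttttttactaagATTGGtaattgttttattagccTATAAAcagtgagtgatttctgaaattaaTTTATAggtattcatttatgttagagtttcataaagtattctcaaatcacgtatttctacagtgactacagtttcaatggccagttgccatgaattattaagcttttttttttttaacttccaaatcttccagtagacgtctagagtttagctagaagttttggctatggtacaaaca

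Omd, chr13:49582212-49582461, plus strand: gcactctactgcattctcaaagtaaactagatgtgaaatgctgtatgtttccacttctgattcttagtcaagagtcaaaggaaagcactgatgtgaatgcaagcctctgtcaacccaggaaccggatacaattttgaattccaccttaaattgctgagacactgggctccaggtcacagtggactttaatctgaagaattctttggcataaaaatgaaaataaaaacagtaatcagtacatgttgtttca

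Ogn, chr13:49607765-49608014, plus strand: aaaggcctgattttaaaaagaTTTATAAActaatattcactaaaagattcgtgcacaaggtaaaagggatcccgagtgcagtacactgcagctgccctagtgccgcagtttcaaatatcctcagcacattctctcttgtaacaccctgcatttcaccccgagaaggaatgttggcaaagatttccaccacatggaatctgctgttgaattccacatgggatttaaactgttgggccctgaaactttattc

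Bgn, chrX:73483351-73483600, plus strand: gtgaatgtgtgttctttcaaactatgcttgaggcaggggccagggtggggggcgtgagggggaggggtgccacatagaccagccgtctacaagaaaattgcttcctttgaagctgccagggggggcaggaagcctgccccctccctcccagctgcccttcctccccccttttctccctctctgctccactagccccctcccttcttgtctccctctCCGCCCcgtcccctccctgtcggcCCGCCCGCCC

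The windows of Aspn, Omd and Ogn held 30% (Aspn), 38.4% (Omd) and 42% (Ogn) G or C, and that of Bgn 64.4%. TATAAA occurred in 2 places in Aspn, on either strand, and in Ogn on both strands in overlapping positions. Of all 32851 promoter windows of this length, 12.4% held these letters. GGGCGG, present in 32.7% of all windows, occurred in 3 places in Bgn, 2 of them overlapping, and in no other member. CCAAT, present in 33.8% of all windows, occurred in Aspn, and also in Prelp and Kera, whose windows are not shown. TGANTCA, present in 6.75% of windows, was found in none of the 7, and the Omd window held none of the 4. A match here describes letters only.

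On the array of day 10 tumor 312 an area in the centre had lost signal, as found from Cy3 alone. It held 6582 of 45018 spots, 14.6%, between rows 154 and 357 and columns 23 and 65. The Ogn and Fmod probes lie inside it, and the local Cy3 deviation of their surroundings from the other arrays was -4.42 (Ogn) and -3.40 (Fmod) on the log2 scale. In Cy5, which was not used to find the area, neither spot was well above background on this array. The ratios and day differences of Ogn and Fmod are therefore given with and without that spot. Lum and Bgn lie near its edge but outside, with local Cy3 deviations of -0.37 (Lum) and -0.32 (Bgn). The Dcn spot of tumor 312 carried the scanner software's non-uniformity flag in Cy3 and was dropped, so that Dcn has 5 values.

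Among the marker lists, all 11 fibroblast genes, all 6 macrophage genes and all 7 endothelial genes tested were higher in tumor than in the reference, as were 7 of 8 pericyte and smooth muscle genes, 8 of 8 skeletal muscle genes and 5 of 6 adipocyte genes. Over all 16311 genes tested, 25.5% were higher. The skeletal muscle count rests on the day 10 tumors, since the list's medians were -0.12, -0.05 and -0.09 in day 15 tumors 303, 313 and 318. Of these 8 genes, 1 passed a filter of well above background on all 6 arrays. Hepatoma and hepatocyte genes were higher in 5 of 9, with a median log2 ratio of -2.14 in tumor 313 and 2.26 to 3.25 in the other 5 tumors. With tumor 313 left out, 7 of the 8 members described below were called higher than the reference, the count found with all tumors. The label of the reference was checked with blood genes. Of 4 erythroid and platelet genes tested, 3 were higher in tumor, among them the platelet chemokine gene Pf4 at a log2 ratio of 5.22 and the erythroid heme synthesis gene Alas2 at 2.81, and 1, the platelet gene Ppbp, was lower at -2.62. These genes did not settle the label, and each ratio below is against RNA labelled as blood, whose cells were not established here. Skin epithelium genes were lower in 1 of 3 (Krt5, a basal keratin, at -1.75) and higher in none.

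Against the reference, 7 of the 8 members tested were higher in tumor and none was lower, where 25.5% of all 16311 genes tested were called higher and 9.77% lower (limma, Benjamini-Hochberg adjusted p under 0.05 and a log2 ratio of at least 1). Lum, Fmod, Omd and Aspn met the filter of 3 of 6 arrays well above background through Cy5 only, so a lower call was hardly open to them. Lum had the highest measured ratio and Dcn the lowest, and Kera was not well above background in either dye on any array. The median log2 ratio of the 8 was 3.27, or 2.91 with Aspn, Fmod and Omd set at the lower bounds given for them, against 0.22 for all genes. In RNA of whole tumors, more cells of a type and more RNA per cell cannot be told apart. Each p-value here rests on the spread between tumor samples, which may or may not come from separate mice, and leaves out any spread between blood samples.

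Lum encodes lumican, the keratan sulfate proteoglycan that spaces collagen fibrils and keeps the cornea clear. Its Cy5 signal (probe A_51_P167527) was 88501, 57787 and 24383 scanner units in day 15 tumors 303, 313 and 318, and 25039, 31508 and 12014 in day 10 tumors 302, 307 and 312. Its Cy3 signal was 192.2, 192.0 and 149.3 on these day 15 arrays and 147.5, 174.2 and 216.9 on the day 10 arrays, and only the last of these, from the array of tumor 312, was well above background. The log2 ratios were 10.14, 9.65 and 8.18 at day 15 and 8.16, 8.39 and 6.65 at day 10. All 6 tumors were far above the reference, and the 2 highest values were day 15 tumors. The mean was 8.53 ± 1.24 (SD, n = 6; limma adjusted p = 2.2e-06). Because the reference was measured on 1 of 6 arrays, the size of this ratio rests on signals near background in Cy3.

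Kera, which encodes keratocan of cornea and tendon, was the only member with no signal well above background. Its Cy5 signal was 128.8 to 156.9 scanner units and its Cy3 signal 114.7 to 152.1. No ratio is given for it.

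Fmod encodes fibromodulin, which binds type I collagen at a site it shares with lumican and is abundant in tendon and cartilage. Its Cy5 signal (probe A_51_P207622) was 774.6, 802.9 and 1710 scanner units in day 15 tumors 303, 313 and 318, and 384.5, 353.8 and 129.5 in day 10 tumors 302, 307 and 312, the last being the spot in the lost area and the only one of the 6 not well above background. The log2 ratios were 2.86, 3.04 and 3.53 at day 15 and 1.32, 1.15 and -0.08 at day 10. Day 15 and day 10 did not overlap, with or without the spot of tumor 312. Since Fmod was not well above background in Cy3 on any array, its ratio is a lower bound, at least 3.72-fold higher in tumor with all spots and at least 5.02-fold without the lost spot (adjusted p = 0.00014 with all spots and 2.52e-05 without). The measured mean was 1.97 ± 1.39 (SD, n = 6), or 2.38 ± 1.07 without the lost spot (n = 5).

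Prelp encodes a protein that ties basement membranes to collagen. Its log2 ratios (probe A_52_P486260) were 5.70, 5.28 and 4.76 at day 15 and 4.91, 5.22 and 4.65 at day 10. All 6 tumors lay close together and the days overlapped. The mean of 5.09 ± 0.39 (SD, n = 6) had the smallest adjusted p among the members, 5.33e-07. Both dyes were well above background on all 6 arrays. The other Prelp probe, A_51_P439846, was well above background in Cy5 on 1 array, that of tumor 303, and in Cy3 on none, so the probes of this gene gave unlike readings.

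Omd encodes osteomodulin, a proteoglycan of bone matrix that binds osteoblasts and hydroxyapatite. Its log2 ratios were 2.71, 1.77 and 2.08 at day 15 and 1.41, 1.46 and 1.17 at day 10, so that the days did not overlap. Cy3 was not well above background on any array, which makes the ratio at least 2.29-fold higher in tumor (measured mean 1.77 ± 0.56, SD, n = 6; adjusted p = 3.75e-05).

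Ogn encodes osteoglycin, also called mimecan, a regulator of fibril formation found in bone, vessel wall and cornea. Its Cy5 signal (probe A_51_P295085) was 23312, 12103 and 6097 scanner units in day 15 tumors 303, 313 and 318, and 9062, 10501 and 118.0 in day 10 tumors 302, 307 and 312. The log2 ratios were 5.98, 5.93 and 5.14 at day 15 and 5.20, 5.08 and -0.17 at day 10. Tumor 312, in the lost area, stood apart and the other 5 lay within 1 log2 unit. With all spots the mean was 4.53 ± 2.33 (SD, n = 6; adjusted p = 0.001), and without the lost spot 5.46 ± 0.45 (n = 5; adjusted p = 1.89e-06).

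Aspn encodes asporin, named for its run of aspartate residues, which binds collagen and TGF-beta and carries no chondroitin or dermatan sulfate chain. Its log2 ratios were 3.06, 4.14 and 4.12 at day 15 and 3.23, 2.52 and 3.04 at day 10. Tumor 303 lay among the day 10 tumors, so the days overlapped. Cy3 was not well above background on any array, and the ratio was at least 6.18-fold higher in tumor (measured mean 3.35 ± 0.65, SD, n = 6; adjusted p = 9.21e-06).

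Bgn encodes biglycan, a collagen-binding proteoglycan that can also signal through Toll-like receptors once released from the matrix. Its log2 ratios (probe A_52_P162486) were 3.14, 4.03 and 3.39 at day 15 and 3.75, 2.29 and 2.50 at day 10, with a mean of 3.18 ± 0.69 (SD, n = 6; adjusted p = 2.71e-05). The Cy3 signal was well above background on 4 of 6 arrays and reached 575.4 scanner units on the array of tumor 307, against 178.8 to 255.4 on the others. That array had the lowest Bgn ratio although its Cy5 signal, 2099, was the second highest of the 6. The other Bgn probe, A_52_P19711, was not well above background in either dye on any array.

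Dcn encodes decorin, which wraps collagen fibrils, binds TGF-beta and is known to dampen the receptors EGFR and MET. It was the member whose tumor and reference signals differed least. Its Cy5 signal (probe A_51_P334104) was 161119, 117648 and 166022 scanner units in day 15 tumors 303, 313 and 318, and 162459, 166810 and 191981 in day 10 tumors 302, 307 and 312. Its Cy3 signal was 168143, 218406 and 155651 on these day 15 arrays and 166704, 185154 and 176253 on the day 10 arrays. The unnormalized tumor signal was thus below the reference signal on 4 of 6 arrays. None of these spots was marked saturated, and the scanner software marked all of them as scaled from its scan at lower gain. After loess the log2 ratios were 1.12, 0.41 and 0.65 at day 15 and 0.53 and 0.44 at day 10 (mean 0.63 ± 0.29, SD, n = 5; fitted 0.61, adjusted p = 0.00522), a difference under the log2 ratio of 1 required for a call. Its direction turned with the scaling, to -0.33 with median centring. The other Dcn probe, A_52_P252726, whose target in the array files is a cDNA clone described as unclassifiable, had a log2 ratio of -1.18 ± 0.51 (SD, n = 6; adjusted p = 0.000998), well above background in both dyes on all 6 arrays. The probes filed under Dcn thus disagreed in direction, and with their mean in place of the brighter probe the value was -0.37.

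**Figure D1:**
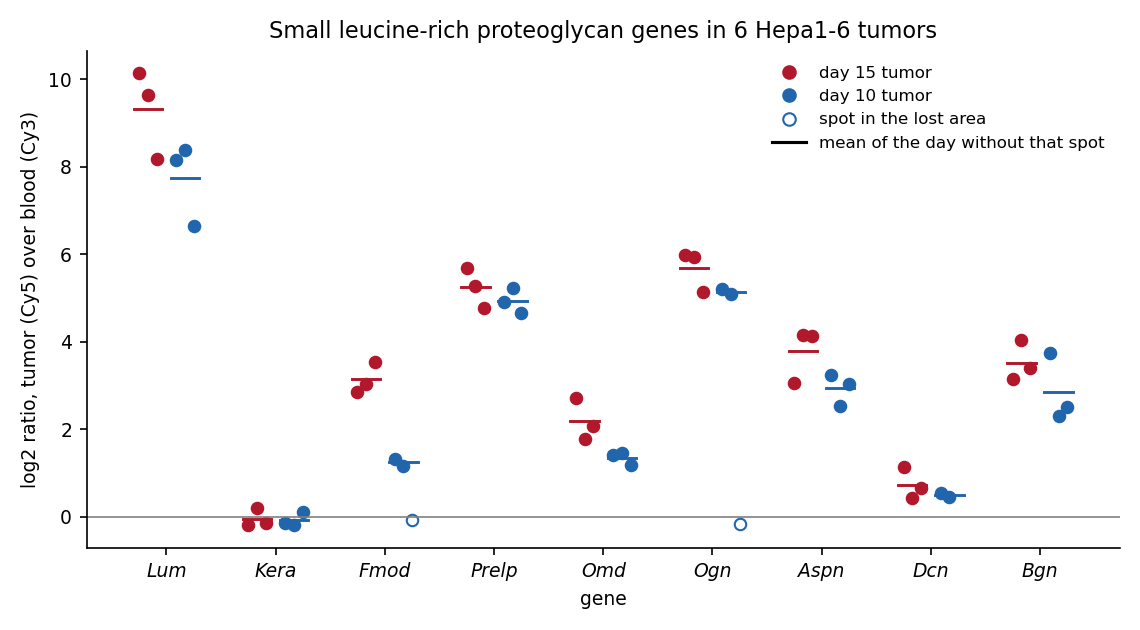
Log2 ratio of tumor (Cy5) over the blood reference (Cy3) for the 9 genes on the vertical axis, 1 point per tumor, day 15 left and day 10 right for each gene, with the mean of each day as a line. Lum lies between 6.65 and 10.14, the day 15 points of Fmod and Omd lie above the day 10 points, Dcn has 5 points between 0.41 and 1.12, and the open points are the Ogn and Fmod spots of tumor 312 in the lost area.

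In order of measured ratio, with Ogn and Fmod taken without the lost spot, the members ran Lum, Ogn, Prelp, Aspn, Bgn, Fmod, Omd and Dcn. The lowest Lum value, 6.65, was above the highest Ogn value, 5.98. Ogn and Prelp overlapped. The lowest Prelp value, 4.65, was above the highest Aspn value, 4.14. Aspn and Bgn overlapped, as did Bgn and Fmod, and Fmod and Omd, while the lowest Omd value, 1.17, was just above the highest Dcn value, 1.12. The ratios of Aspn, Fmod and Omd depend on how signals near background are treated. With the scanner's processed signals on the same spots Aspn averaged 5.15, against 3.35 with normexp, Fmod 3.56 against 2.38 and Omd 3.37 against 1.77. Aspn then stood above Prelp and Fmod above Bgn, while the other places were as before.

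By chromosome, Aspn, Omd, Ogn and the adjoining family gene Ecm2 (at least 3.42-fold, adjusted p = 6.89e-05) were all called higher in tumor. On chromosome 10, Lum, Dcn and Kera differed: Lum was called, Dcn was not, and Kera was not above background. Prelp and Fmod, neighbours on chromosome 1, were both called. Of the other family genes, 5 of 9 were tested and 2 were called higher, Ecm2 and Podnl1, at 2.15 ± 1.30 (SD, n = 6) with its probe in the lost area. Chadl was lowest at 0.21 (adjusted p = 0.0768), and Epyc, Optc, Chad and Nyx did not reach the signal needed for the test.

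The signals in the separate dyes showed where the members were measured at all. In Cy5, Lum, Dcn, Bgn, Prelp, Omd and Aspn were well above background on all 6 arrays, Fmod and Ogn on 5 and Kera on 0. In Cy3, Dcn and Prelp were well above background on 6 arrays, Ogn on 5, Bgn on 4, Lum on 1, and Fmod, Omd, Aspn and Kera on 0. Over all genes, 47.3% were well above background in Cy5 on all arrays and 44.3% in Cy3, and 41.0% were not so on any array in Cy3.

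The Cy3 signals of Prelp and Ogn were not alike on the 6 arrays, although the reference carries 1 description. Prelp read 747.6, 443.6 and 313.7 scanner units in Cy3 on the day 15 arrays of tumors 303, 313 and 318 and 533.8, 652.7 and 388.8 on the day 10 arrays of tumors 302, 307 and 312. The Cy5 signals on the same arrays were 18861, 8085 and 6117 at day 15 and 11226, 15902 and 6058 at day 10. Prelp was brightest in both dyes on the array of tumor 303. Ogn read 762.1, 446.4 and 247.7 in Cy3 at day 15 and 353.6, 471.6 and 119.3 at day 10, and outside the lost spot the array of tumor 303 was again highest and that of tumor 318 lowest in both dyes. These scanner signals were not scaled between arrays, and what makes the Cy3 signals move with Cy5 was not tested.

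**Figure D2:**
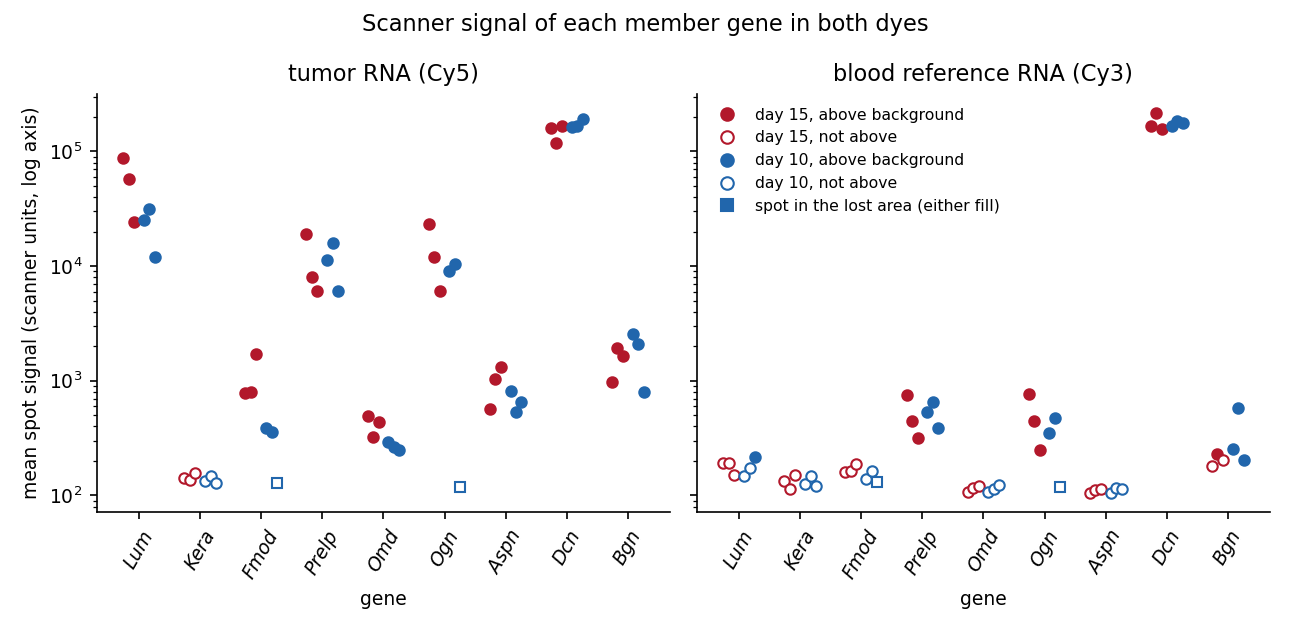
Mean spot signal in scanner units on a log axis for the 9 genes, tumor RNA (Cy5) left and reference RNA (Cy3) right, 1 point per array, filled where the spot was well above background and square for the 2 spots in the lost area. Signals are not scaled between arrays, which differ in brightness, and are not comparable between genes. Dcn is bright in both dyes, Fmod, Omd and Aspn are above background in Cy5 only, and Kera in neither.

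Between the days, none of the 8 members tested was called, where 9 of 15805 genes, 0.0569%, were (limma, Benjamini-Hochberg adjusted p under 0.05). All 8 estimates were higher at day 15 with loess, though those of Dcn (-0.25) and Prelp (-0.013) were lower with median centring, and 55% of all genes had higher estimates with loess. Of the members 4 had an unadjusted p under 0.05 (Fmod, Lum, Omd and Aspn), against 2.44% of all genes in this direction. The median day difference of the members, with the lost spots of Ogn and Fmod included, was 0.84 on the log2 scale, and of all genes 0.02. The days did not overlap for Fmod and Omd, with day 15 above, against 5.06% of all genes.

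Fmod had the largest day difference. Its mean log2 ratio was 3.14 ± 0.34 at day 15 and 0.80 ± 0.76 at day 10 (SD, n = 3 each), a difference of 2.34 (SE 0.40; limma adjusted p = 0.37). Without the lost spot the day 10 mean was 1.24 (n = 2) and the difference 1.90 (SE 0.24, limma adjusted p = 0.209). Over all alternatives the difference ran from 1.81 to 2.60 and its adjusted p from 0.2 to 0.983. In the Cy5 signal alone, after quantile normalization, the difference was 2.21 (SE 0.47, limma adjusted p = 0.841), and 1.75 without the lost spot (SE 0.32, adjusted p = 0.418).

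Lum averaged 9.32 ± 1.02 at day 15 and 7.73 ± 0.95 at day 10 (SD, n = 3 each), a difference of 1.59 (SE 0.64, adjusted p over 0.99 in limma). Tumor 318 of day 15, at 8.18, lay below tumor 307 of day 10, at 8.39, and tumor 312 of day 10 was the lowest of the 6. Omd differed by 0.84 (SE 0.26) and Aspn by 0.85 (SE 0.35), with limma adjusted p over 0.99 for both. Bgn differed by 0.68 (SE 0.43), Prelp by 0.32 (SE 0.28) and Dcn by 0.24 (SE 0.25). With each tumor left out in turn, the difference of Bgn ran from 0.40 without tumor 307 to 1.13 without tumor 302, that of Prelp from 0.091 without tumor 303 to 0.56 without tumor 318, and that of Dcn from 0.046 without tumor 303 to 0.40 without tumor 313. Lum ran from 1.05 without tumor 312 to 2.16 without tumor 318. The Ogn difference of 2.31 (SE 1.41) rested on the lost spot of tumor 312 and was 0.54 (SE 0.30) without it. In Cy5 alone the Ogn difference was 2.84 (SE 1.85) with that spot and 0.58 (SE 0.63) without it.

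In Cy5 alone none of the 8 members was called and 0% of all genes were, 149 genes being higher and 328 lower at an unadjusted p under 0.05. Estimates were higher at day 15 for 6 members, where 37.6% of all genes had higher estimates, and Fmod was the only member with a higher estimate at an unadjusted p under 0.05, against 0.943% of all genes. It was also the only one with day 15 wholly above day 10, against 2.14% of all genes. With the lost area left out, Lum and Omd also had an unadjusted p under 0.05. Bgn, at -0.21, and Prelp, at -0.06, had lower estimates at day 15, so that the signs of their ratio differences were not those of the tumor signal. In Cy3, 4 members could be tested between the arrays of the days, none was called and 0% of all 13933 genes were, 25 genes being higher and 192 lower at an unadjusted p under 0.05. The smallest of their p-values was that of Bgn, with a difference of -0.93 (SE 0.38, limma adjusted p = 0.585), and the Cy3 mean of Bgn on the day 10 arrays includes the high array of tumor 307. The Cy3 difference of Ogn was 0.78 with the lost spot and 0.027 without it.

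**Figure D3:**
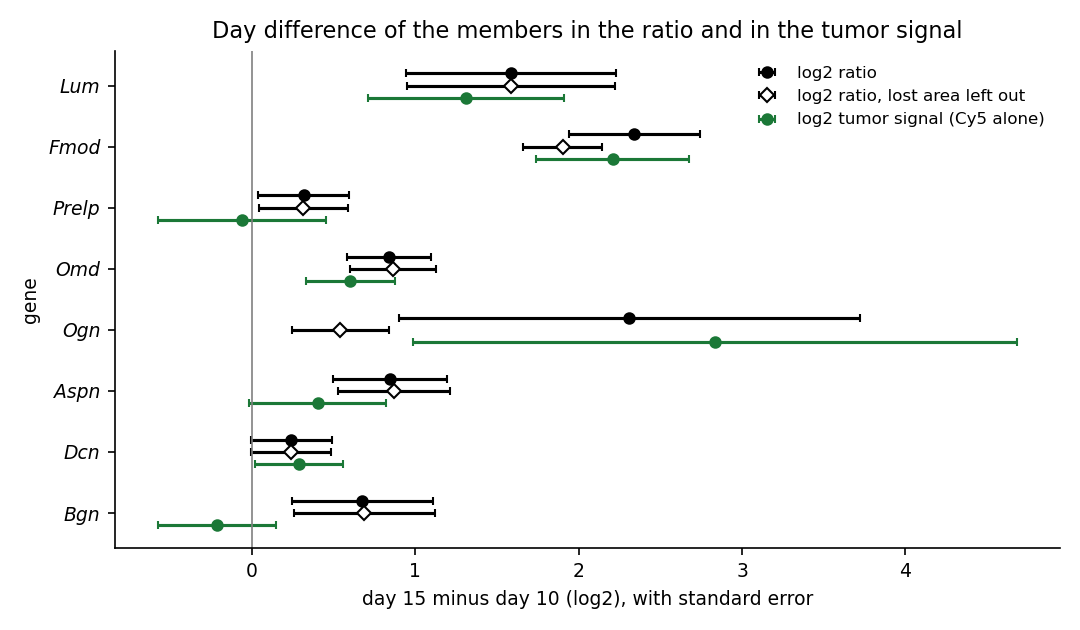
Day 15 minus day 10 difference on the log2 scale for the 8 members tested (horizontal axis; bars are standard errors), in the log2 ratio, in the log2 ratio with the lost area left out, and in the log2 tumor signal alone. Fmod is well to the right in all 3, from 1.90 to 2.34, Ogn moves from 2.31 to 0.54 when the lost spot is left out, and Bgn and Prelp lie left of 0 in the tumor signal.

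The collagens that these proteins coat were higher too. In what follows, highest and lowest are by measured ratio, and a gene not well above background in Cy3 has only a lower bound. Of 14 fibrillar and fibril-surface collagen genes, 13 were higher in tumor and none lower, with a median log2 ratio of 5.40. Col1a1, the main chain of type I collagen, stood highest at 7.65 ± 0.63 (SD, n = 6), with its probe in the lost area. Without that spot its value was 7.81. Averaging its probes gave 4.68, below the 7.05 that Col3a1, the chain of type III collagen, had with its brightest probe. Col11a1, a chain of minor fibrils of cartilage, at least 1.70-fold, was not called. Between the days 13 of 14 estimates were higher at day 15, by a median of 0.46, and none was called (Col14a1, which sits on fibril surfaces, had the largest, 0.86, limma adjusted p over 0.99).

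Enzymes that build the sugar chains had lower ratios. Of 19 tested, 8 were higher and none lower, with a median of 0.62. Dsel, an epimerase that turns chondroitin into dermatan sulfate, was at least 15.6-fold higher with its probe in the lost area, and B3galt6, which adds a link sugar shared by all these chains, was at 0.04 (adjusted p = 0.608) and below 0 in 4 alternatives. Among receptors reported to bind these proteins, 8 of 13 were higher and 2 lower. Lrp1, an endocytic receptor for decorin, was the highest of those measured in both dyes at 3.54 ± 0.38. Igf1r, the receptor of insulin-like growth factor, was at least 8.22-fold higher. Kdr, a VEGF receptor with its probe in the lost area, was at least 7.97-fold higher. The order of Igf1r and Kdr with Lrp1 is thus not known. Met, the hepatocyte growth factor receptor, was lowest at -1.58 ± 0.67 (SD, n = 6 for Lrp1 and Met). Cd14, the co-receptor of Toll-like receptors in biglycan signalling, had a day difference of 0.85 (SE 0.37). That of Kdr, which includes the lost spot, was close at 0.84. With each tumor left out the day difference of Cd14 ran from 0.47 without tumor 303 to 1.15 without tumor 313.

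Of the TGF-beta ligands that decorin, biglycan and asporin bind, Tgfb3 (4.17, adjusted p = 3.86e-06) and Tgfb2 (2.11, probe in the lost area) were higher and Tgfb1, at 0.93, was under the log2 ratio of 1. Of proteases known to cut these proteoglycans, 9 of 11 were higher and none lower. They ran from Adamts5, an aggrecanase, at 5.16 ± 0.59 to Mmp13, a collagenase, at -0.19 ± 0.87 (SD, n = 6 each), and Mmp3, stromelysin, had the largest day difference, 1.32 (SE 0.96), with its probe in the lost area, and 0.25 with that spot left out, less in size than the -1.06 of Mmp13. Of other matrix proteoglycans only 2 of 9 could be tested and both were higher, Srgn, the granule proteoglycan of blood and endothelial cells, at 7.85 ± 0.16 and Vcan, versican, at 3.01 ± 0.57 (SD, n = 6 each). Acan, Bcan, Hapln1, Ncan and Spock1 were not well above background in Cy5 on any array.

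**Figure D4:**
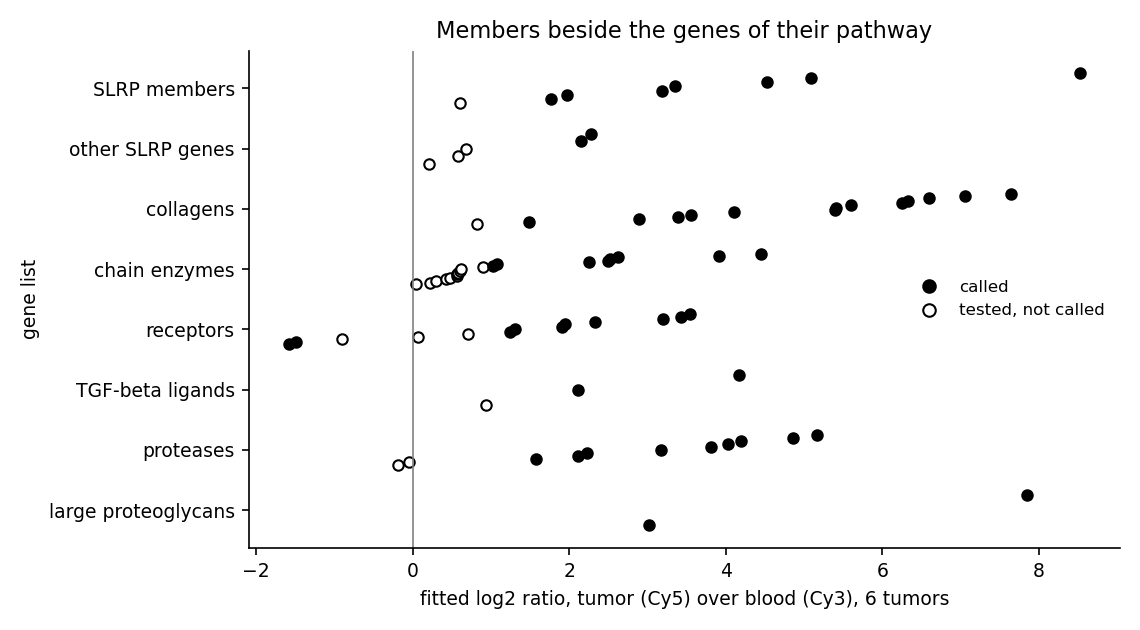
Fitted log2 ratio of tumor over reference (horizontal axis) for each tested gene of the member list and of 7 pathway lists, filled where called at an adjusted p under 0.05 and a log2 ratio of at least 1. The members lie between 0.61 and 8.53, 13 of 14 collagens are filled, and the open chain enzymes lie between 0.04 and 0.90.

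Cell type markers, like the members, varied between the tumors, and whether their medians moved together was not tested. The member median log2 ratio was 3.10, 4.09 and 3.82 in day 15 tumors 303, 313 and 318, and 3.49, 2.40 and 2.50 in day 10 tumors 302, 307 and 312, the last being 3.04 without Ogn and Fmod. The fibroblast median was 4.87, 4.91 and 4.14 at day 15 and 4.33, 4.22 and 3.90 at day 10. For 8 fibroblast genes the log2 of the summed Cy5 signal was 18.13 to 19.25 at day 15 and 18.22 to 18.53 at day 10, all 11 fibroblast day estimates were higher at day 15 and none was called. Pdgfrb, a receptor of fibroblasts and pericytes, had the highest measured ratio of this list at 6.25 ± 0.49 (SD, n = 6).

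The adipocyte median was 5.22, 5.47 and 0.87 in day 15 tumors 303, 313 and 318, and 2.53, 2.86 and 0.55 in day 10 tumors 302, 307 and 312, with the log2 of the summed Cy5 signal of 4 genes at 11.86 to 17.65 at day 15 and 12.15 to 14.83 at day 10. Tumors 318 (day 15) and 312 (day 10), the lowest of their days by this list, were also the lowest of their days in Lum and Prelp. Their medians were also the lowest of their days for fibroblast genes, for collagens (5.06 in tumor 318 and 4.72 in tumor 312), for macrophage genes (5.19 and 5.28), for endothelial genes (3.35 and 2.52) and over all genes of the array (0.17 and 0.11). Fmod did not follow this order, being highest in tumor 318. The 6 adipocyte genes tested had higher day 15 estimates and none was called; Lep was not tested. The part of any of these lists in the Lum and Prelp values was not tested.

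Skeletal muscle genes ran the other way. Their median was -0.12, -0.05 and -0.09 at day 15 and 4.19, 3.09 and 4.13 at day 10, with the log2 of their summed Cy5 signal at 9.91 to 10.84 at day 15 and 14.44 to 17.38 at day 10, and 5 of 8 were called lower at day 15 (Myh4, a fast myosin, by -4.75, adjusted p = 0.00161). The day estimates of the members had the opposite sign to this list with loess, and its part in their values was not tested.

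Of 6 tendon genes 4 were tested, Thbs4 was at least 7.59-fold higher and Scx, a tendon transcription factor, lower at -1.51 ± 0.16 (SD, n = 6), while Tnmd and Kera were not well above background in Cy5 on any array. Comp, a matrix protein of tendon and cartilage, was the list's largest day difference, 1.69 (SE 0.27, limma adjusted p = 0.284). Of 9 cartilage and bone genes 4 were tested and 2 were higher. These were Col2a1 at 5.41 ± 0.69 (SD, n = 6), with its probe in the lost area, and Alpl at least 2.96-fold. Over the alternatives Col2a1 ran from 3.10 to 5.76. Sox9, the lowest of those tested, was not called with loess and ran from -1.17 to -0.0072 over the alternatives. Acan, Matn3 and Sp7 were not well above background in Cy5 on any array.

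**Figure D5:**
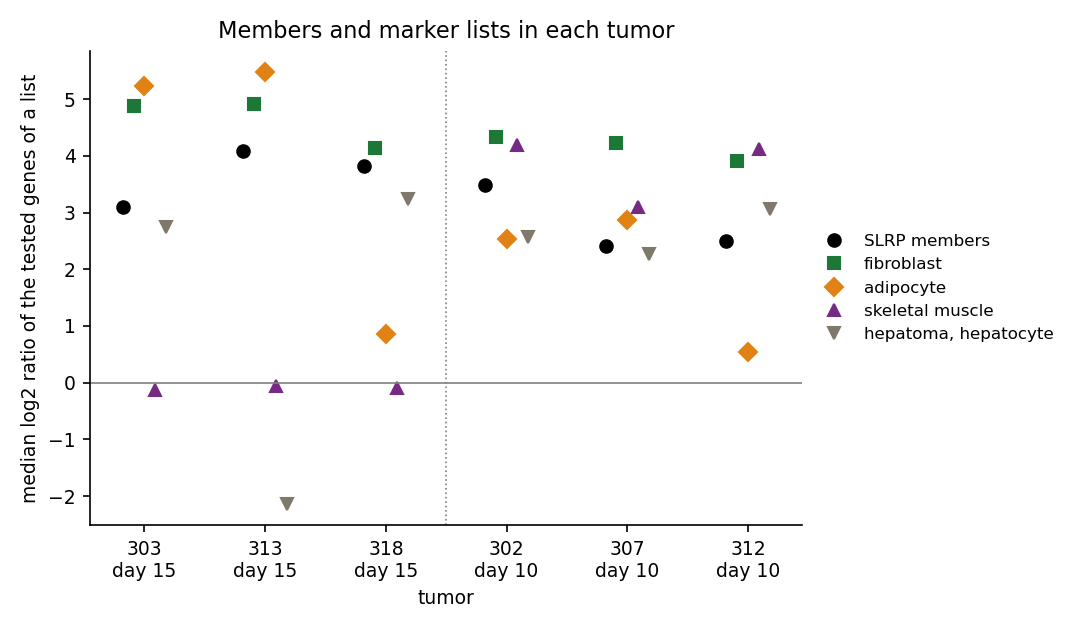
Median log2 ratio of the tested genes of 5 lists (vertical axis) in each tumor, day 15 tumors left and day 10 tumors right of the dotted line. The member medians lie between 2.40 and 4.09, the skeletal muscle medians near 0 at day 15 and between 3.09 and 4.19 at day 10, and the adipocyte median is lowest in tumors 318 and 312.

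Across the 6 tumors the members did not share 1 profile. These correlations describe 6 points that share arrays, slides and reference, and no p is given. Lum and Prelp had r = 0.90, Lum and Omd 0.78 and Bgn and Aspn 0.78, while Prelp and Aspn had -0.19 and Bgn and Prelp 0.11. Genes most like a member were sought among 11085 named genes well above background in Cy5 on all arrays, kept where their SD over the tumors was at least 0.25 of the member's, which left 4134 candidates for Lum and 7828 to 10224 for the others. Those most like Lum were Clec3b (r = 0.99), Dpp4 (0.99) and Slc16a7 (0.99), and 14.9% of the candidates had r over 0.8. The probes of Clec3b and Dpp4 lie in the lost area, and without tumor 312, in which Lum is lowest, r was 0.97 (Clec3b), 0.97 (Dpp4) and 0.98 (Slc16a7). For Prelp they were Slc16a6, Cflar and Plekha4 (0.99 each), for Omd Dnaja1, Elavl1 (probe in the lost area) and Nox4 (0.99 each), for Aspn Haus8 (0.99), Mcemp1 (0.98) and Zfp148 (0.97), and for Bgn Tnfsf14 (0.97), Wscd2 (0.96) and Casz1 (0.96). Dcn, Fmod and Ogn were left out of this search, since each lacked a usable value in tumor 312.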

How the data were processed

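Expression in 6 tumors was read on 2-colour Agilent arrays, with a separate array for each. Mean spot and median local background intensity of each dye, deposited as scanner output and not normalized, came from Agilent Feature Extraction 9.1.3.1, per the submitters' processing notes. Per the file headers, the software's processed intensity was background-subtracted and dye-normalized. The log10 ratios of the deposited value table differed by 0 from the software's own log10 ratio in the deposited scanner output at every spot, with a median of 0 in each column.

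In limma 3.58.1 (R 4.3.3), intensities were corrected with normexp (offset 50) and normalized by loess within arrays to log2 ratios, with controls and outlier spots (45 to 71 per array) left out. RefSeq (GRCm38.p6) gave names for 23374 of 41174 probes through the accession, for 6733 through the symbol and for 2919 through an older symbol, and 8148 kept the files' name. The brightest probe stood for a gene. Tumors were tested against 0, as the mean of both days, on the 24228 probes for which 3 or more of 6 arrays were well above background in Cy5 or Cy3, and day 15 against day 10 on 23069 probes so in Cy5. Both tests were 2-sided fits by lmFit and eBayes, adjusted after Benjamini-Hochberg over all probes. Each dye alone was tested after quantile normalization (20929 probes in Cy3). A ratio against a dye not well above background on any array is a bound. It sets the mean tumor signal against, per array, the higher of the lowest signal well above background and the probe's own after Aquantile scaling, and can carry dye bias. The array number limits precision.

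Named genes are the members, the highest, the lowest and the most day-dependent gene of each list, chosen by rule and in part left out, and the 3 genes most alike to each member. Other names were chosen after their values were seen. The members and lists were chosen with earlier results of these data known. Tested on simulated data for the day comparison (23069 probes), 34% of probes changed by 1 log2 unit were called, 70% at 2, 92% at 3 and 98% at 4, with 10 false calls among 157. The simulation changed 50 probes at each size, while the data gave 9 calls among 15805 genes. The share called depends on how many probes change, so these percentages need not hold for the members. Alternatives in background correction, normalization, source signal, filter, probe choice, lost area, listing order of the arrays and tumors left out are in the closing section.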

Additional observations from a re-analysis of the deposited data

Results flagged for a closer look

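Of 20 sets of 6 member values examined, 2 held a value far from the other 5, both for Ogn in tumor 312. Chance would flag about 1 such set in 20. The log2 ratio of Ogn in tumor 312 was -0.17, and the next lowest of the 6 tumors was 5.08. The log2 Cy5 signal of Ogn in tumor 312 was 6.21, and the next lowest was 12.34. The spot lies in the lost area of that array, where the Cy3 signal was low as well.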

How the results depend on the processing

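The count of members higher in tumor than in the reference was 7 in 15 of 16 alternatives, and 5 where probes had to be well above background on all 6 arrays, which drops Ogn and Fmod from the test. No member was called between the days in any alternative. Over all genes the calls were split 4159 higher to 1594 lower (72.3% higher) with loess, against 3239 to 4595 (41.3%) with median centring, 4447 to 3233 (57.9%) with the processed signals and 4452 to 3231 (57.9%) with the value table, while the median ratio of all genes was 0.22, -0.34 and -0.02 with loess, median centring and processed signals. Between the days, 2 genes were called higher and 7 lower. The count of higher calls was 1 with median centring, processed signals, the value table or the filter on all 6 arrays. It was 0 in Cy5 alone or with the order of the arrays within each day as a block. That order is the order of listing and was not read from positions on the slide. The count of lower calls was 0 with the filter on all 6 arrays and in Cy5 alone and 4 with array order as a block. Leaving out each tumor gave 0 to 6 higher and 3 to 24 lower calls, the extremes being without tumor 318 (6) and without tumor 307 (24), and in Cy5 alone 0 to 1 higher and 0 to 20 lower, the 1 and 20 without tumor 307. Signs turned for Dcn against the reference (-0.33 with median centring, -0.37 with the mean of its probes), B3galt6 (-0.38 with median centring, -0.43 with processed signals and the value table, -0.012 to 0.082 with each tumor left out, lowest without tumor 303) and Acta2 (-0.24 with median centring). Between the days they turned for Dcn (-0.25) and Prelp (-0.013) with median centring, Vcan (0.14 with processed signals and the value table), Ambp (-3.97 to 0.49 with each tumor left out, highest without tumor 313), and Bgn (-0.21) and Prelp (-0.060) in Cy5 alone. In Cy5 alone Prelp was 0.026 with the lost area left out and -0.57 to 0.40 with each tumor left out, above 0 without tumor 307 (0.18) or 318 (0.40), and Bgn was -0.51 to 0.074, above 0 without tumor 303. The causes were not tested. Slide as a block was not run, since each day lies on 1 slide. No paired analysis was possible because the tumors of the days share no number. Signals near background limit the ratios of Fmod, Omd, Aspn and Lum in Cy3.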
